A study of Mus musculus with 96 samples.

Results

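CpG DNA and gardiquimod, ligands of different Toll-like receptors (TLRs) of the endosome, were compared over the first 2 h of stimulation of mouse primary bone marrow dendritic cells. The comparison took the arrays titled Cpg at 0.5, 1 and 2 h against those titled Grd at the same hours: 6 arrays against 6, 2 for each ligand and time, 12 of the 96 arrays of the series, described across all genes. The series covers 5 TLR ligands at up to 9 times on Affymetrix mouse HT arrays, with 8 unstimulated arrays titled Control, taken at times from 0 to 24 h. The labels give no dose, mouse strain, age or sex, and no sign that replicates came from separate cultures. The p-values rest on a spread estimated over all 96 arrays, and the variation between replicates may be technical. The 8 unstimulated arrays share 1 mean in the fit, so their changes from 0 to 24 h also enter that spread. By the wells in the labels, Cpg and Grd arrays lay in different rows and columns of the plate, so place on the plate and ligand cannot be told apart.

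TLR9 recognises unmethylated CpG DNA and TLR7 recognises single-stranded RNA and small imidazoquinoline compounds such as gardiquimod. Both receptors sit in endosomes, are carried there by the chaperone UNC93B1 and signal through the adaptor MYD88 to NF-kB, MAP kinases and interferon regulatory factors. In dendritic cells this signal switches on immediate-early transcription factors first, then cytokines and chemokines, then the surface molecules that stimulate T cells.

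Values are the authors' RMA intensities, which are linear here and have a lowest value of 20, called the floor below. A gene was called when limma, fitted across 10543 genes and unnamed probe sets, gave a Benjamini-Hochberg adjusted p under 0.05 and a difference of at least 1 on the log2(value + 1) scale. A value at the floor is only an upper bound, so a fold against arrays that are all at the floor is written as "at least", and log2 differences of such genes understate the change.

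On the 12 arrays 33.51% to 34.39% of probe sets sat at the floor, and the median intensity ran from 51.4 to 57.6. None of the 10 conventional dendritic cell markers was at the floor on all of the 12 early and 8 unstimulated arrays. Their summed intensity was 37027.6 to 41250.1 on Cpg arrays, 37280.2 to 38687.7 on Grd arrays and 36717.3 to 39352.2 on unstimulated arrays. Flt3 and Zbtb46 added little to these sums, with medians of 27.6 and 52.55 on the 12 arrays. The 5 measured B cell markers were at the floor on all of these arrays, as were Ly6d, Klk1 and Cox6a2 of the 6 measured plasmacytoid dendritic cell markers. The others of the 6, Tcf4, Spib and Ccr9, were above it, with medians of 54.9, 35.05 and 29.9 on the 12 arrays. The 9 measured macrophage markers summed to 14926.7 to 20872.9 with Cpg and 12703.7 to 16047.3 with Grd, and the 8 neutrophil markers to 6426.5 to 9083 and 6520.5 to 8662. Both extremes of these 2 Cpg ranges were the 1 h arrays, and the part of either cell type in the results was not tested.

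The 2 Cpg arrays at 1 h stood apart from each other. They correlated at 0.9919 over all items tested and differed at least 2-fold in 93 of them, while the other 5 replicate pairs had 0 or 1 such item. Replicate 1 had 10 items at least 1 log2 unit above all 11 other early arrays and 15 as far below, against 1 and 0 for replicate 2 and none for any other early array. Plet1 read 356.5 on replicate 1 and 3150.4 on replicate 2, against 3657.1 to 4859.7 on the 10 other early arrays. C5ar1 read 174 and 43.1, against 21.3 to 50.5. The 1 h counts, and each named 1 h call that was lost without either array, are therefore given with and without them. Plet1 was named after its values were seen.

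Over 0.5 to 2 h the called differences lay on the Cpg side only. There were 47 items higher with Cpg, 40 of them named genes, which is 0.446% of the 10543 tested, and 0 higher with Grd. They were led by the cytokine subunits Il12b and Il23a, the phosphatases Dusp2 and Dusp14, the immediate-early factor Egr1, the T-cell ligands Tnfsf9 and Cd70, and the prostaglandin synthase Ptgs2. Their median difference was 1.3 log2 units, beside a median of -0.02 over all items, and their limma adjusted p ran from 3.3e-31 to 0.00019. Without the first or the second Cpg array at 1 h there were 45 and 47 such items, of which 41 and 45 were among the 47.

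On the Grd side no item reached a log2 difference of 1 even at an unadjusted limma p under 0.05. Among named genes with an adjusted p under 0.05, those nearest to it were Cad at -0.82, Gpr35 at -0.78 and Vdr at -0.76, the last 2 named after their values were seen; Ccn3 gave -0.81 with an adjusted p of 0.11. Without the second Cpg array at 1 h 1 gene passed, Ccn3 at -1.23, and without the 0.5 h arrays 5 items did, Mgl2, Gpr35, Cad and 2 unnamed probe sets. With no minimum fold 962 items (9.12%) were higher with Cpg and 1717 (16.3%) with Grd, so that 35.9% lay on the Cpg side. That share became 55% when arrays were centred on their medians and 44.2% after quantile normalization. Just under the limit of 1 lay Gem (0.998), Rhob, Cdk5r1 and Tnf (0.95); just over it lay Zbtb46, Noct, Tmem39a and Tnfaip3 (1.05).

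Time by time, 45 items (0.427%) were higher with Cpg at 0.5 h, 137 (1.3%) at 1 h and 97 (0.92%) at 2 h. The Grd side held 0 items at 0.5 h, also at an unadjusted limma p under 0.05, then 39 (0.37%) at 1 h and 24 (0.228%) at 2 h, so that 1.67% of items were called in either direction at 1 h and 1.15% at 2 h. Later the sides held 110 (1.04%) and 26 (0.247%) items at 4 h, 33 (0.313%) and 13 (0.123%) at 6 h, and 13 each at 8 h (0.247% together). Without the first Cpg array at 1 h the 1 h counts were 113 and 29, and without the second 179 and 112. Of the 137 items 102 were called again without the first array, and of the 39 items 17.

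**Figure D1:**
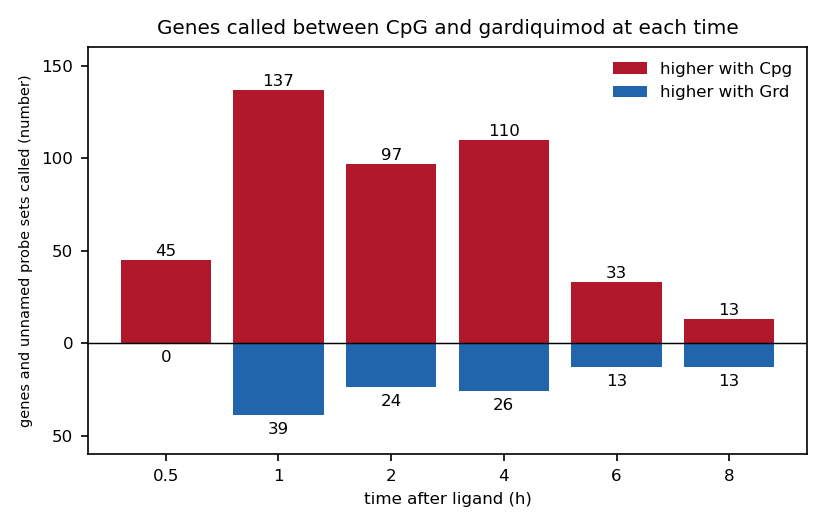
Number of genes and unnamed probe sets called at each time (x axis, h), higher with Cpg above the line and higher with Grd below it, from 2 arrays against 2. The Cpg side was highest at 1 h with 137 and had 13 at 8 h, when the Grd side also had 13.

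The 47 items were not all early in the same way. At 0.5 h 9 were called, at 1 h 44 and at 2 h 39; 35 were called at both 1 and 2 h but not at 0.5 h, 6 at 0.5 and 1 h but not at 2 h, and only Egr1 and Ptgs2 at all 3 times. The largest of the 3 differences fell at 0.5 h for 5 of them, at 1 h for 29 and at 2 h for 13. Their median difference was 0.09 at 0.5 h, 2.12 at 1 h and 1.75 at 2 h.

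At 0.5 h the named genes with the largest differences were Egr1, Cxcl1, Nfkbiz, Ptgs2 and Tnf. Egr1, a zinc-finger transcription factor of the first response, read 502.6 and 648.8 with Cpg and 65.3 and 80.5 with Grd, against 20 to 41.2 on unstimulated arrays. The Cpg mean was 7.88-fold higher (limma adjusted p = 3.41e-11). Both ligands were therefore above the unstimulated range, with no overlap between them.

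Cxcl1, which draws neutrophils, read 202.4 and 182.5 with Cpg and 52.5 and 39.6 with Grd, with all unstimulated arrays at the floor (4.21-fold, adjusted p = 2.29e-11). Nfkbiz encodes the nuclear inhibitor of kappa B zeta, a co-activator of secondary response genes such as Il6 and Il12b; it read 468.7 and 600.7 against 156.6 and 132.2 (3.69-fold, adjusted p = 7.1e-07). Tnf, the cytokine TNF, read 1159.7 and 1200.3 against 386.2 and 286.1 (3.55-fold, adjusted p = 5.84e-05). In each of these genes both Grd arrays at 0.5 h were above the unstimulated range and both Cpg arrays were higher still.

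Ptgs2 encodes cyclooxygenase-2, which makes prostaglandin precursors. Its Grd arrays were still at the floor at 0.5 h while the Cpg arrays read 73.3 and 77.4, at least 3.77-fold higher (adjusted p = 9.23e-08); a second Ptgs2 probe set gave 0.57 log2 units at 0.5 h (adjusted p = 0.0385), under the limit. Tnfaip3, the NF-kB inhibitor A20, read 207 and 168.4 against 59 and 58.9, the Grd arrays lying within the unstimulated range of 51.2 to 129.1 (3.17-fold, adjusted p = 8.57e-06). Btg2, an antiproliferative gene that promotes messenger RNA decay, read 481.5 and 609.1 against 172.2 and 199.2 (2.92-fold, adjusted p = 1.24e-08).

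At 2 h none of Cxcl1, Nfkbiz, Tnf, Tnfaip3 and Btg2 was called. Cxcl1 read 2267.4 and 2326.8 with Cpg and 1921.7 and 1936.5 with Grd at 2 h, a 1.19-fold difference that did not pass (adjusted p = 0.418). The change of its difference from 0.5 to 2 h, tested as an interaction, was -1.80 ± 0.26 log2 units (SE, adjusted p = 1.27e-06), and that of Tnf was -1.57 ± 0.44 (adjusted p = 0.0143). Tnfaip3 and Nfkbiz differed 1.24-fold and 1.29-fold at 2 h, with adjusted p of 0.489 and 0.397. A second Nfkbiz probe set gave 0.89 log2 units at 2 h (adjusted p = 0.0127), also under the limit, and 1.99 at 0.5 h.

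Not all of the 45 items at 0.5 h followed that pattern. In 13 both Cpg arrays were above all 8 unstimulated arrays, and in 7 of these both Grd arrays were too. In 29 both Grd arrays lay below all 8 unstimulated arrays while the Cpg arrays were not above them, and in 5 of the 29 both Cpg arrays lay below as well. Cybb, the catalytic subunit of the phagocyte NADPH oxidase, was named after its values were seen and read 1314 and 1286.8 with Grd, 2898.1 and 2773.6 with Cpg and at least 2902.6 without stimulus, and its Grd arrays read 3219.9 and 3376 at 1 h. Tlr8, an endosomal RNA receptor, read 55.4 and 43.5 with Grd and 161.9 and 180.9 with Cpg, against 156.3 to 601.4 without stimulus (3.49-fold, adjusted p = 0.000797). Of the 45 items 22 have a gene name, and 27 were called with a pseudocount of 16 in place of 1 and 19 when tested against a difference of 0.5.

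Promoters of 5 called genes are shown. The difference was largest at 0.5 h in Cxcl1, Tnfaip3 and Btg2, at 1 h in Il6 and at 2 h in Ifnb1. Egr1 and Nfkbiz, the other called genes whose difference was largest at 0.5 h, are not among the promoters shown. Each is the 250 bases before the annotated start, on the gene's strand, from RefSeq on GRCm38.p6, with capitals marking matches to the NF-kB consensus, AP-1 (TGANTCA) or CRE (TGACGTCA) on either strand. They lie at chr5:90890995-90891244 on the plus strand (Cxcl1), chr10:19015411-19015660 on the minus strand (Tnfaip3), chr1:134079156-134079405 on the minus strand (Btg2), chr5:30012864-30013113 on the plus strand (Il6) and chr4:88522795-88523044 on the minus strand (Ifnb1), upstream of the first exon of each gene.
Cxcl1: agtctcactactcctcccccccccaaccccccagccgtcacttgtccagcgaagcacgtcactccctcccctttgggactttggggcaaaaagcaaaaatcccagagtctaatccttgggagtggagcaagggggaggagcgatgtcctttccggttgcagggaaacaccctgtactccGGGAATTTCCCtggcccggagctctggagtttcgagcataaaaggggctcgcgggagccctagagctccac
Tnfaip3: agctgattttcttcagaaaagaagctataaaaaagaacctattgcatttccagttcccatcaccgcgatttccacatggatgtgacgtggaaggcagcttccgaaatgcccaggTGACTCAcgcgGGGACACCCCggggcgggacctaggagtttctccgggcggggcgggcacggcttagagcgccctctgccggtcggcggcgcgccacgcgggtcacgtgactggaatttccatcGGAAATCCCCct
Btg2: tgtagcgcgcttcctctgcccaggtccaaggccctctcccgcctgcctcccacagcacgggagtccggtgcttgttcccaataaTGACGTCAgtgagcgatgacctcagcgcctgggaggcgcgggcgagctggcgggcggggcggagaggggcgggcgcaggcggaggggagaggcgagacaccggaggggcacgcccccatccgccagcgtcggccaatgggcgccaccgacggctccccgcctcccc
Il6: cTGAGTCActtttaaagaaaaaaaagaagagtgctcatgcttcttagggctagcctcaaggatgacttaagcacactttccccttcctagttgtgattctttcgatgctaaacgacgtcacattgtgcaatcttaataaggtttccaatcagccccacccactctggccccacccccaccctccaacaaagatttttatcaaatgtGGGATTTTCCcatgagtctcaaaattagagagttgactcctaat
Ifnb1: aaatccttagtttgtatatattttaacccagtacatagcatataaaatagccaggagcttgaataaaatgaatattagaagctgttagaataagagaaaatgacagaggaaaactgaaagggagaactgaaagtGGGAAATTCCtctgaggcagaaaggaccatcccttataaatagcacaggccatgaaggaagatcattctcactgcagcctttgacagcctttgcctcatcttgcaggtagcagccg
Counted from the annotated start, the NF-kB matches begin at -71 in Cxcl1, -125 and -12 in Tnfaip3, -44 in Il6 and -116 in Ifnb1; the AP-1 matches begin at -136 in Tnfaip3 and -249 in Il6, and the CRE match of Btg2 at -166. Matches of different motifs share no base in these windows. Where a gene has several annotated starts, the window with the most matches is shown. Of the 40 named genes 24 have a promoter in the table. The NF-kB consensus was in 8 of the 24 (33.3%) and in 8.23% of all 27025 genes of the table; AP-1 was in 4 (16.7%, against 7.82%) and CRE in 2 (8.33%, against 1.77%). These shares describe letters in a window and were not tested.

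Among cytokines, Il12b gave the largest difference of all genes over 0.5 to 2 h, 2.79 ± 0.24 log2 units (SE, adjusted p = 2.38e-13). It encodes the p40 chain shared by interleukin-12 and interleukin-23. At 1 h it read 2732.1 and 2764.4 with Cpg and 87 and 124.4 with Grd, 26.4-fold apart, and the Grd arrays were still inside the unstimulated range of 21.9 to 154. At 2 h it read 4422.5 and 4142.8 against 477.9 and 515.2 (8.63-fold, adjusted p = 1.92e-07), so Grd was by then above that range. A second probe set gave 1.94.

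Il23a, the p19 chain of interleukin-23, was at the floor on all unstimulated arrays and on all Grd arrays up to 1 h. With Cpg it read 128.4 and 211.9 at 1 h, at least 8.25-fold higher, and 294.8 and 240.6 at 2 h, when Grd read 26.8 and 28.8 (9.59-fold, adjusted p = 8.87e-22). Il6, an inflammatory cytokine, differed earlier and less: it read 82.4 and 82 against 50.9 and 29.6 at 0.5 h, 3049.4 and 3294.1 against 730.6 and 910.6 at 1 h, and 4094.6 and 4194.9 against 2261.1 and 2336.6 at 2 h. The Il6 arrays of the ligands did not overlap at any of the 3 times, though the 2 h difference did not pass (1.80-fold, adjusted p = 0.0758). Il1a, Il1b and Il10 were not called at any of the 3 times; Il1b read 8233 and 7956.1 with Cpg and 6160.5 and 6807.3 with Grd at 1 h, and Il10 was at the floor on all 12 arrays.

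Of the 24 measured cytokines and mediators 7 were higher with Cpg over 0.5 to 2 h (Il6, Il12b, Il23a, Ptgs2, Edn1, Tnfsf9, Ereg) and none with Grd; 3 were called at 0.5 h, 7 at 1 h and 6 at 2 h. Over all items 0.446% were higher with Cpg over 0.5 to 2 h, and 0.427%, 1.3% and 0.92% at the 3 times; the same shares stand beside the counts of the other lists. Without either Cpg array at 1 h the 1 h count was again 7, though without the first Il15 gave way to Edn1. The median over the 24 was 0.40, beside -0.02 over all items. Ptgs2 differed at all times, reading 3011.9 and 2707.7 with Cpg against 479.9 and 565.6 with Grd at 1 h (5.48-fold) and 3399 and 3198.7 against 1092.9 and 1289.3 at 2 h (2.78-fold, adjusted p = 3.6e-06). Edn1, which encodes the vasoconstrictor endothelin-1, was late: Cpg read 340.1 and 295.3 and Grd 28.1 and 35.9 at 2 h (9.98-fold, adjusted p = 2.23e-22), after 32.9 and 43.9 against 20 and 20.7 at 1 h. Its change from 1 to 2 h was 2.41 ± 0.23 (adjusted p = 1.76e-10), and its call over the 3 times was lost when time entered as an additive block (adjusted p = 0.0916) or without the 2 h arrays, when its difference was 0.44.

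Of 20 chemokines 3 were called over 0.5 to 2 h, beside 0.446% of all items: Cxcl1, Ccl4, an inflammatory chemokine, and Ccl12, a monocyte attractant. Ccl4 read 2112.2 and 1670.5 with Cpg against 616.6 and 634.2 with Grd at 1 h (3-fold, adjusted p = 0.00234, but 0.0519 without the first Cpg array) and 3798 and 3839.3 against 1292.4 and 1323.4 at 2 h. Cxcl10, an interferon-responsive chemokine, was called at 1 h only, at 848.9 and 590.2 against 235.9 and 282.4 (2.74-fold, adjusted p = 0.000248). Cxcl2 and Ccl3 gave 0.35 and 0.71 and Ccl5 0.07, none of them called; Ccl5 was already between 7920.1 and 9471 without stimulus.

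**Figure D2:**
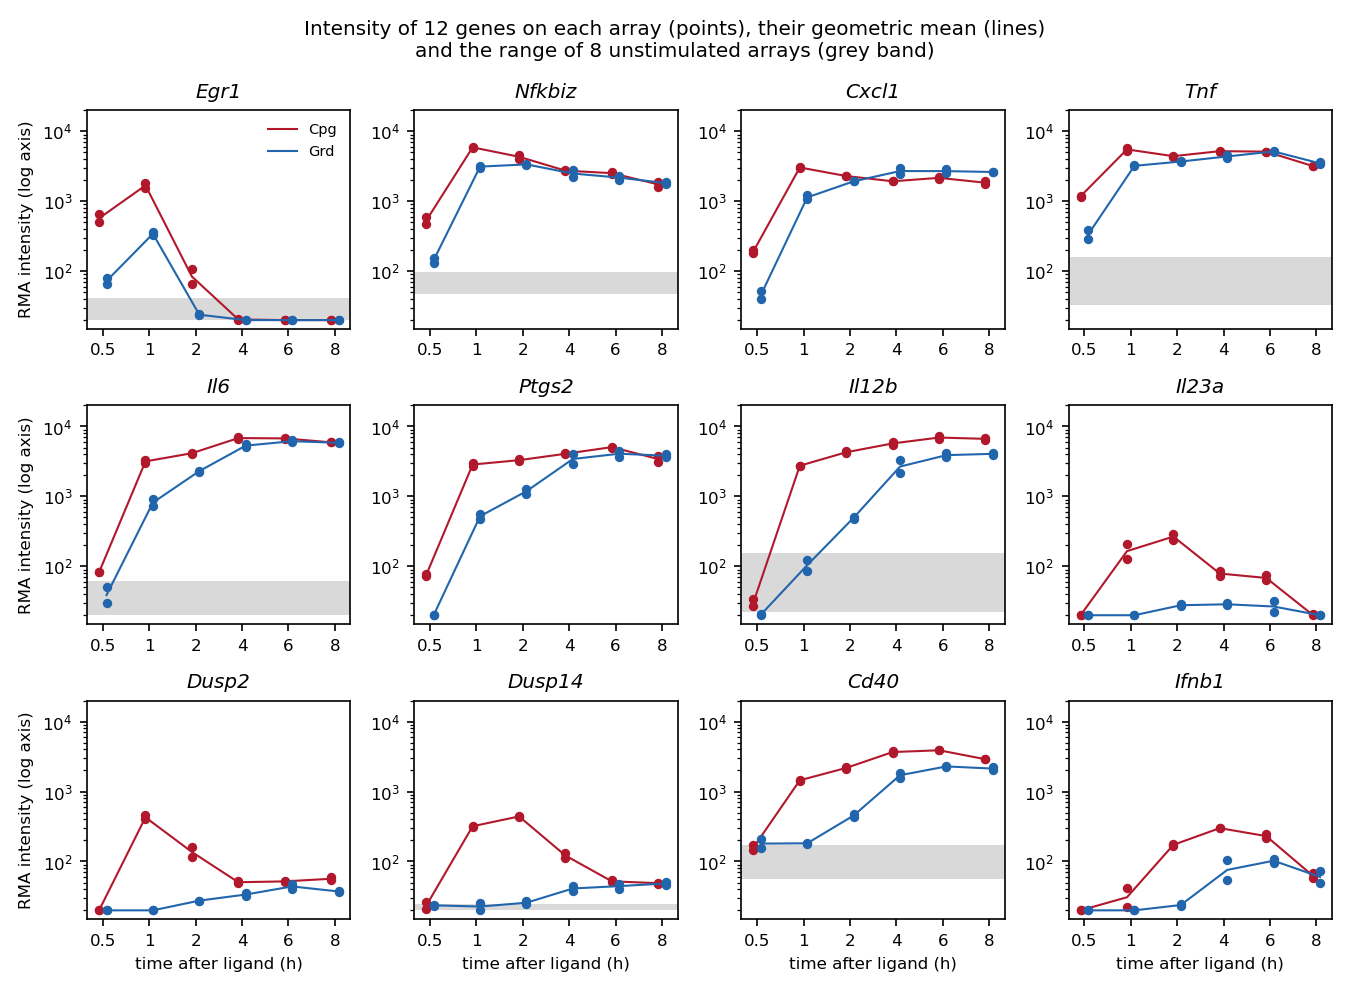
RMA intensity (y axis, log scale) of 12 genes from 0.5 to 8 h, with a point per array, lines through the geometric means of Cpg (red) and Grd (blue), and a grey band for the range of the 8 unstimulated arrays, which is at the floor of 20 and not visible where those arrays all read 20. Egr1 separated at 0.5 h and met at the floor by 4 h, while Il12b, Il23a, Dusp2 and Dusp14 separated at 1 h.

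Among negative regulators, Dusp2 and Dusp14 were of the largest differences. Dusp2, a nuclear phosphatase that inactivates MAP kinases, was at the floor on every unstimulated array and on every Grd array at 0.5 and 1 h. It read 399.4 and 458.1 with Cpg at 1 h, at least 21.4-fold higher (adjusted p = 4.1e-17), then 116.2 and 160.7 against 27.5 and 27.6 with Grd at 2 h (4.96-fold). Its difference fell by 2.08 ± 0.42 log2 units from 1 to 2 h (adjusted p = 0.00142).

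Dusp14, a phosphatase that acts on MAP kinase signalling proteins, kept its difference: Cpg read 323.7 and 314.3 and Grd 20 and 25.7 at 1 h (14.1-fold), and Cpg 447.9 and 433.5 and Grd 27 and 24.5 at 2 h (17.1-fold, adjusted p = 1.3e-25). Its Grd arrays stayed within or just above the unstimulated range of 20 to 24.4. Rgs1, which switches off G protein signalling, read 5007.9 and 4608 against 1347.5 and 1301 at 1 h (3.63-fold, adjusted p = 3.28e-11). Dusp6, a cytoplasmic ERK phosphatase, went the other way at 1 h, reading 20 and 25.4 with Cpg and 71.6 and 69.1 with Grd (3.12-fold higher with Grd, adjusted p = 0.000155), and was at the floor with both ligands at 2 h.

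Over the 29 measured feedback genes 3 were higher with Cpg over 0.5 to 2 h (Dusp2, Dusp14, Rgs1), 1 at 0.5 h (Socs3), 6 at 1 h and 6 at 2 h, beside 0.446%, 0.427%, 1.3% and 0.92% of all items. The 1 h count was 5 without the first Cpg array and 6 without the second. Dusp6 at 1 h was the 1 member higher with Grd, joined by Cish without the second Cpg array. Dusp1, the best known of the immediate-early MAP kinase phosphatases, read 3814.9 and 3624.8 with Cpg and 2301.6 and 2270.3 with Grd at 1 h, a 1.63-fold difference under the limit of 1 log2 unit. Socs1, an inhibitor of cytokine receptors, gave 0.02 ± 0.18.

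The maturation list holds surface molecules through which dendritic cells stimulate T cells, beside other maturation genes such as Marcksl1. Of the 22 maturation genes measured limma called 0 at 0.5 h, also at an unadjusted p under 0.05 with the same minimum difference, 8 at 1 h (Cd40, Cd80, Cd83, Icosl, Cd70, Tnfsf4, Icam1, Marcksl1) and 5 at 2 h, all higher with Cpg, beside 0.427%, 1.3% and 0.92% of all items. The 1 h count was 6 without the first Cpg array and 7 without the second. Both of these counts are of members higher with Cpg. Without the second array Pdcd1lg2 was called at 1 h too, higher with Grd. Cd40, the receptor for T-cell help, read 1484.7 and 1411.8 with Cpg at 1 h and 180.1 and 183.5 with Grd (7.96-fold, limma adjusted p = 5.43e-16), and 2238.9 and 2115.2 against 434.7 and 474.4 at 2 h. Cd70, the ligand of CD27, was at the floor with Grd at 1 h against 99.1 and 96 with Cpg, and read 24.5 and 26.9 against 334.1 and 314.9 at 2 h (12.6-fold, adjusted p = 1.15e-32).

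Tnfsf9, the 4-1BB ligand, was highest at 1 h of the 3 times: Cpg read 4962.9 and 4228.4 and Grd 376.4 and 395.1 (11.9-fold, adjusted p = 1.39e-14), and at 2 h they read 1401.1 and 1662.3 against 511.3 and 566 (2.84-fold). Its difference fell by 2.06 ± 0.41 between those times (adjusted p = 0.000929). Tnfsf4, the OX40 ligand, read 649.7 and 640.8 against 139.6 and 180.2 at 2 h (4.07-fold, adjusted p = 1.26e-16). Cd80 was called at 1 h (2.06-fold) and at 2 h (2.38-fold, adjusted p = 0.000932), the former not without the second Cpg array (0.80, adjusted p = 0.0895); of its other probe sets 1 was called at both times (1.04 and 1.05) and 1 at neither. Cd86, its partner ligand of CD28, gave 0.32 ± 0.12 and was not called.

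Other genes among the 15 largest have varied roles. Plat, tissue plasminogen activator, read 225.4 and 115.9 with Cpg at 1 h while all Grd arrays were at the floor (at least 8.08-fold, adjusted p = 1.31e-20), and 145.6 and 125.5 against 22.5 and 20 at 2 h. Serpinb2, an inhibitor of plasminogen activators, read 1638.8 and 1783.2 against 281.9 and 371.9 at 1 h (5.28-fold) and 2825.7 and 2719.4 against 640.5 and 677.8 at 2 h (4.21-fold, adjusted p = 1.2e-05). An activator and an inhibitor of the same protease system were thus both higher with Cpg.

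Hspa1b, an inducible heat-shock protein of the HSP70 family, read 243.5 and 155.2 against 22.6 and 24.7 at 1 h (8.23-fold, adjusted p = 4.31e-21). Clcf1, a cytokine of the interleukin-6 family, read 176.5 and 163.7 against 20.4 and 22.3 at 1 h (7.97-fold, adjusted p = 4.18e-17). Sema7a, a semaphorin that binds integrins, read 649.7 and 653.8 against 141.7 and 135.1 (4.71-fold, adjusted p = 8.22e-19); its second probe set was above the floor on 0 of the 12 arrays. Ccrl2, an atypical chemokine receptor, was already 2.94-fold higher at 0.5 h (adjusted p = 4.3e-08) and 3.62-fold at 1 h.

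The list of immediate-early transcription factors, which also holds the antiproliferative gene Btg2, had most calls at 1 h, as all items did. Of 24 measured, 2 were higher with Cpg at 0.5 h (Egr1, Btg2), 6 at 1 h (Egr1, Fos, Junb, Nr4a1, Klf2, Btg2) and 2 at 2 h (Egr1, Nr4a1), while Klf10 at 1 h and Egr2 at 2 h were higher with Grd; 0.427%, 1.3% and 0.92% of all items were higher with Cpg at these times. Without the first Cpg array at 1 h Junb (0.94) and Btg2 (0.98) fell under the limit, leaving 4 of the 6, and without the second Klf10 was not called. Fos read 1050.9 and 753.3 with Cpg and 317.7 and 312.8 with Grd at 1 h (2.82-fold, adjusted p = 9.56e-06), after 509.4 and 577.1 against 388 and 383.9 at 0.5 h. Nr4a1, an orphan nuclear receptor, read 669.7 and 351.5 against 61.5 and 87.1 at 1 h (6.63-fold, adjusted p = 2.21e-17), and lost its call over the 3 times when time was an additive block (adjusted p = 0.0705).

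Egr1 and Egr2, members of a single family, went opposite ways at 2 h. Egr1 read 66.5 and 106.1 with Cpg and 24.2 and 23.6 with Grd (3.52-fold higher with Cpg, adjusted p = 2.61e-06). Egr2 read 474.5 and 617.3 with Cpg and 1272.2 and 1148.6 with Grd (2.23-fold higher with Grd, adjusted p = 0.0194), after 1447.8 and 1460.4 against 1113.7 and 964 at 0.5 h. Its change from 0.5 to 2 h was -1.65 ± 0.51 (adjusted p = 0.027); a second Egr2 probe set gave -0.85 at 2 h (adjusted p = 0.0993). Egr3 stayed near the floor with both ligands, at 20 to 24.6.

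In the NF-kB list of 24 genes, 2 were called over 0.5 to 2 h (Nfkbiz, Tnfaip3), 4 at 1 h (Rel, Tnfaip3, Traf1, Bcl2l11) and 1 at 2 h (Cflar, whose 3 other probe sets were not called then). These counts stand beside 0.446%, 1.3% and 0.92% of all items, and without the first Cpg array at 1 h Traf1 was not called. Nfkbia, the classical inhibitor and target of NF-kB, read 8276 and 7866.2 with Cpg and 4801.3 and 4789.2 with Grd at 1 h (1.68-fold, adjusted p = 0.00244), under the limit. Map3k14, the kinase NIK of the alternative NF-kB pathway, was higher with Grd at 2 h, at 111.3 and 117.1 against 32 and 51.3 with Cpg (2.82-fold, adjusted p = 4.41e-12). Both of its Cpg arrays and both of its Grd arrays lay below the unstimulated range of 157.8 to 196.8. Bcl2l11, which encodes the pro-apoptotic BIM, gave 0.69 on the probe set used and 1.04 to 1.60 on its 4 other probe sets.

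Interferon beta differed most at 2 h. Ifnb1 was at the floor on all unstimulated arrays and all Grd arrays up to 1 h, read 22.5 and 42.1 with Cpg at 1 h, and at 2 h read 168 and 178.1 with Cpg against 24.4 and 23.3 with Grd (7.25-fold, adjusted p = 1.16e-19). Its difference at 1 h was 0.60, under the limit, but 1.04 without the first Cpg array and 0.16 without the second. Its difference grew by 2.21 ± 0.23 from 1 to 2 h (limma adjusted p = 1.88e-09). Its mean over the 3 times, 1.14 ± 0.09, was 0.99 without the second Cpg array at 1 h, 0.88 with a pseudocount of 16 and 0.30 without the 2 h arrays, and it was lost with time as an additive block (adjusted p = 0.116).

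The count of interferon-stimulated genes called at 1 h turned on the Cpg arrays. Of 40 measured, limma called 0 over 0.5 to 2 h, at 0.5 h and at 2 h, also at an unadjusted p under 0.05 with the same minimum difference, and 1 at 1 h (Ifit1). Without the first Cpg array the 1 h count was 0, and without the second 6, all higher with Cpg (Ifit1, Ifit2, Ifit3, Rsad2, Iigp1, Slfn8). The median difference of the 40 was 0.04 over 0.5 to 2 h, 0.25 at 1 h and -0.12 at 2 h. With no minimum difference, 7 were higher with Cpg and 4 with Grd at an unadjusted limma p under 0.05 over 0.5 to 2 h. By time these counts were 2 and 1 at 0.5 h, 17 and 0 at 1 h, and 3 and 9 at 2 h. Rsad2, which encodes viperin, read 2854.6 and 1622.8 with Cpg and 1206.3 and 1031.4 with Grd at 1 h, inside the unstimulated range of 899.7 to 2923.7; its 2 other probe sets were called at 1 h, at 1.13 and 1.28 log2 units (adjusted p = 0.00187 and 0.000274). Irf1, an interferon regulatory factor that NF-kB also induces, was called at 1 h, at 2304 and 1635.2 against 751.5 and 784.6 (2.53-fold, adjusted p = 3.34e-10). Stat5a, a transcription factor of cytokine receptors, was called at 2 h, at 704.5 and 609.5 against 176.7 and 169.2 (3.79-fold, adjusted p = 9.65e-15). Irf7 gave -0.05 ± 0.12. In the list of type I interferons, interferon regulatory factors and STATs, 1 of 27 measured was higher with Cpg over 0.5 to 2 h (Ifnb1). At 1 h 3 were (Irf1, Irf8, Prdm1) and at 2 h 2 (Ifnb1, Stat5a), beside 0.446%, 1.3% and 0.92% of all items. Without the first Cpg array Irf8 was not called at 1 h, while Irf4 gave 1.03 in place of 0.77.

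Of the receptors of the ligands, Tlr9 was at the floor on all 12 arrays and on the 8 unstimulated arrays, so its level has only an upper bound here. Tlr7 read 197 and 186.7 with Cpg and 141.9 and 132 with Grd at 0.5 h, and 430.1 and 455.6 against 305.9 and 305 at 2 h, a difference of 0.56 ± 0.12 over the 3 times (adjusted p = 0.000624) under the limit. Its 2 other probe sets passed the limit at 1 h (1.02 and 1.21, adjusted p = 2.44e-06 and 3.25e-06) and at 2 h (1.19 and 1.45, adjusted p = 8.43e-08 and 7.56e-08), higher with Cpg. Myd88 gave -0.07 ± 0.06 and Unc93b1 0.01 ± 0.06. Of 31 endosomal TLR genes, each measured by its brightest probe set, Tlr8 at 0.5 h was the single call.

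**Figure D3:**
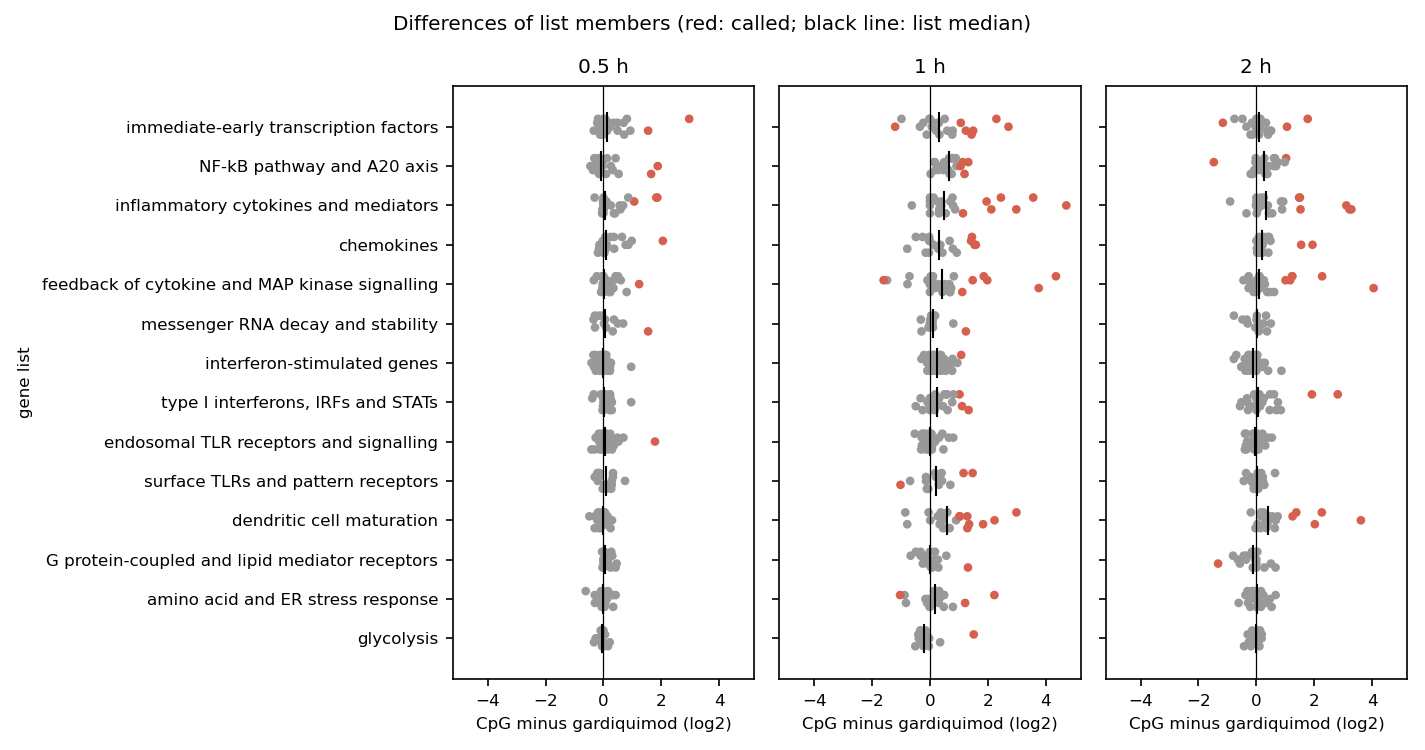
Log2 difference, Cpg minus Grd (x axis), of each measured member of 14 gene lists (rows) at 0.5, 1 and 2 h; red points were called, grey points were not, and a black line marks each list's median. Of the maturation genes 8 were called at 1 h and 0 at 0.5 h, beside 1.3% and 0.427% of all items.

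The remaining lists held few calls. Of 13 messenger RNA decay genes Btg2 was called at 0.5 and 1 h, the latter not without the first Cpg array, and of 24 amino acid and endoplasmic reticulum stress genes 2 were higher with Cpg at 1 h (Ppp1r15a, Cebpd) and 1 with Grd (Slc7a5). Ppp1r15a, the stress-induced phosphatase subunit GADD34, read 1128.9 and 1041.8 with Cpg and 226.8 and 235.4 with Grd at 1 h (4.69-fold, adjusted p = 2.24e-18). Slc7a5, an amino acid transporter, was not called at 1 h without the first Cpg array (-0.75, adjusted p = 0.269). Of 15 glycolysis genes Pfkfb3, which drives glycolysis through fructose 2,6-bisphosphate, was called at 1 h (2.86-fold, adjusted p = 2.23e-08; 0.93 log2 units on a second probe set), while the list's median at 1 h was -0.19.

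Of 16 genes in the list of surface TLRs and pattern receptors, Tlr1 and Mefv were higher with Cpg at 1 h. Mrc1, the mannose receptor, was higher with Grd, at 1781.8 and 1771.2 against 945.2 and 815.5 (2.02-fold, adjusted p = 0.000284). Without the second Cpg array Mrc1 gave -0.91, under the limit. Tlr1 read 535.8 and 184.7 on the 2 Cpg arrays at 1 h and was not called without the first (0.40, adjusted p = 0.391). The same held for C5ar1, the receptor of complement C5a and the single call among 20 G protein-coupled receptors at 1 h (0.32, adjusted p = 0.694). Gpr65, a proton-sensing receptor, was higher with Grd at 2 h.

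Genes higher with Grd at 1 h were led by Ccn3, Mgl2, Clec10a, Cad and Dusp6. The lectins Mgl2 and Clec10a read 148.5 and 384.5, and 38 and 56, with Cpg, against 867.2 and 984.9, and 154.5 and 178.8, with Grd (3.87-fold, adjusted p = 0.000334, and 3.60-fold, adjusted p = 8.24e-06). Without the first Cpg array Clec10a kept a difference of -1.55 (adjusted p = 0.00306), but Mgl2 gave -1.26 (adjusted p = 0.0803) and Ccn3 -0.82 (adjusted p = 0.586). Cad, the first enzymes of pyrimidine synthesis, read 23.4 and 28.4 against 85.8 and 82.4 (3.26-fold, adjusted p = 0.000152). Of the 39 items both Cpg arrays lay below all unstimulated arrays in 13. The unstimulated arrays run from 0 to 24 h and some genes changed over that time, so such counts at every time depend on the late arrays too. Cad, for example, read 80.3, 87.9 and 57.8 without stimulus at 0, 1 and 2 h but 20 at 24 h, and so could not count as below.

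At 2 h the Grd side was led by other genes, set against the same unstimulated range of 0 to 24 h. In 22 of the 24 items both Cpg arrays lay below all 8 unstimulated arrays, and in 16 both Grd arrays did too. Sox4, a developmental transcription factor, read 60.7 and 70.8 with Cpg and 191.9 and 194.3 with Grd (2.95-fold, adjusted p = 1.52e-06). Without stimulus it read 224.9 to 414.1. A second Sox4 probe set gave -0.86 log2 units at 2 h (adjusted p = 0.0023), under the limit. The remaining Sox4 probe sets gave -0.07 to 0 at 2 h. Over the 3 times all of these other probe sets gave -0.30 to 0.06, beside -0.44 on the probe set used. Eif2ak3, the stress kinase PERK, read 27.6 and 36.1 against 89.3 and 82.9 (2.73-fold, adjusted p = 2.02e-11). Gpr65 read 225.3 and 237.7 against 611.2 and 551.2 (2.51-fold, adjusted p = 1.98e-12), and Ahrr, the repressor of the aryl hydrocarbon receptor, 78.2 and 75.5 against 191.4 and 180.6 (2.42-fold, adjusted p = 1.5e-08). On the Cpg side, by contrast, both Cpg arrays lay above all unstimulated arrays in 94 of 97 items at 2 h and in 120 of 137 at 1 h, and both Grd arrays did so in 57 and 61.

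Bcl2l1 and Il1r2 were further genes of the 2 h side. Bcl2l1, the survival protein BCL-XL, read 796.5 and 742.3 with Cpg and 210.2 and 170.1 with Grd at 2 h (4.07-fold, adjusted p = 7.81e-11), after a 1.11-fold difference at 1 h. Il1r2, the decoy receptor of interleukin-1, read 84.5 and 96.6 with Cpg and 138.5 and 131.3 with Grd at 0.5 h, then 574.3 and 534.4 against 106.7 and 99 at 2 h (5.39-fold, adjusted p = 4.25e-09). Its difference changed by 2.99 ± 0.40 between those times (adjusted p = 2.43e-07).

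Changes of the difference itself were tested across all genes. From 0.5 to 2 h 213 items (2.02%) changed, 99 (0.939%) towards Cpg and 114 (1.08%) towards Grd. From 1 to 2 h 84 items (0.797%) changed, 26 (0.247%) towards Cpg and 58 (0.55%) towards Grd. The latter counts were 18 and 40 without the first Cpg array at 1 h, and 63 and 120 without the second. Dusp14 moved most towards Cpg from 0.5 to 2 h, by 4.06 ± 0.24, and Vhl, the ubiquitin ligase subunit that targets hypoxia-inducible factors, most towards Grd among named genes (-1.95 ± 0.30, adjusted p = 5.25e-06).

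**Figure D4:**
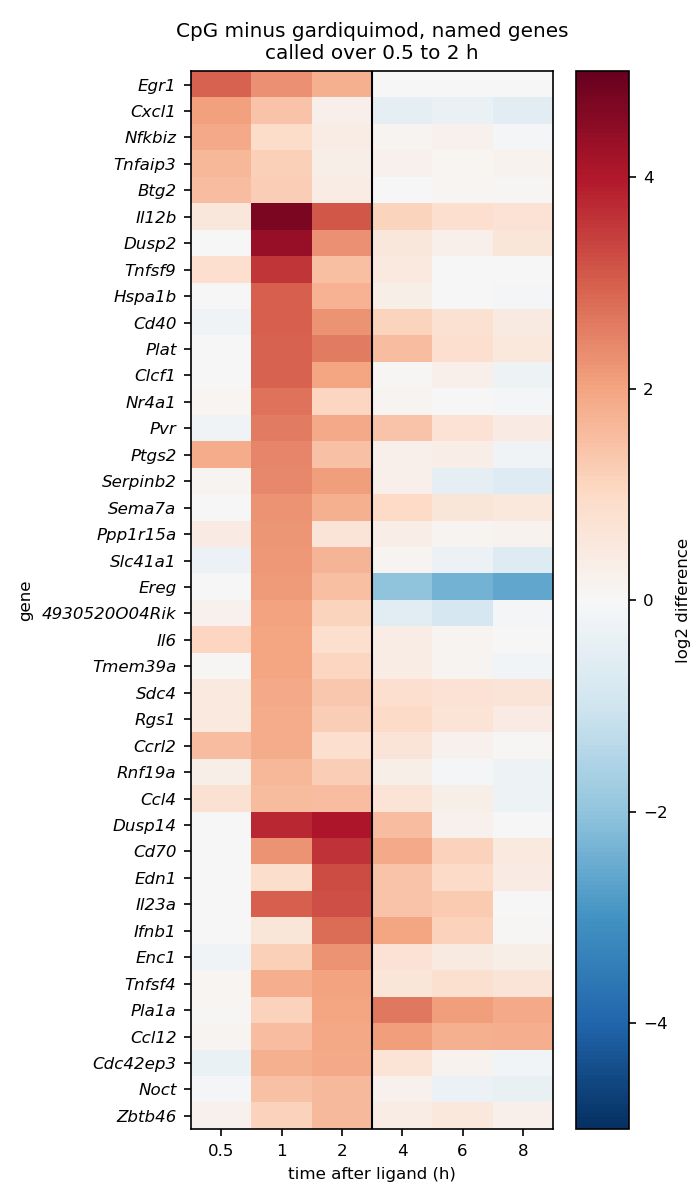
Log2 difference, Cpg minus Grd, of the 40 named genes called over 0.5 to 2 h (rows, ordered by the time of their largest early difference) at 0.5 to 8 h (columns); red is higher with Cpg, blue higher with Grd, and the black line separates the times that chose the genes from 4 to 8 h. The median over the 47 items was 2.12 at 1 h and 0.05 at 8 h, and Ereg turned from 2.12 at 1 h to -2.59 at 8 h.

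By 4 to 8 h, which did not choose the 47 items, the differences of most of these items were smaller. Their median was 0.50 at 4 h, 0.21 at 6 h and 0.05 at 8 h, and 4 of the 47 were higher with Cpg over 4 to 8 h, beside 0.332% of all items, and 1 with Grd, beside 0.0854%. These were Pla1a (2.20), Ccl12 (1.88), Cd70 (1.18) and Ifnb1 (1.07), Pla1a being named after its values were seen. In 25 of the 47 the early difference exceeded the later one in the test of that change, which called 80 items (0.759%) in all, 51 (0.484%) in this direction and 29 (0.275%) in the other; since the early arrays chose these items, the 25 is a description.

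Ereg, which encodes the growth factor epiregulin, was the 1 item of the 47 called higher with Grd over 4 to 8 h. With Cpg it read 79 and 128.1 at 1 h and 110 and 101 at 2 h, against 22.3 and 22.5, and 32.7 and 39.7, with Grd (4.49-fold and 2.92-fold, adjusted p = 2.95e-09 and 8.67e-06). Over 4 to 8 h its difference was -2.32, and the change between the windows was 3.54 ± 0.20 (adjusted p = 1.68e-19).

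Set beside each other across times, the Grd mean at 2 h reached the Cpg mean at 1 h in 0 of the 47 items. In 5 of the 47 the highest Grd mean of 4, 6 and 8 h reached the highest Cpg mean of 0.5 to 2 h. Both counts are descriptions without a test, since the early arrays chose the items.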

How the data were processed

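RNA of mouse bone marrow dendritic cells was measured on Affymetrix HT arrays. The authors deposited 1 intensity per probe set and array, made with RMA per the submitters' processing notes; its version and settings are not given in the sources used here. Deposited intensities are linear, with a floor of 20 that limits precision for low genes. Of 18858 probe sets, 15044 carry 1 gene symbol, 257 several and 3557 none in the platform annotation, which can be old; 15024 matched RefSeq genes of GRCm38.p6. Dropping the 4409 probe sets that read 20 throughout the 96 arrays, and keeping per gene the one of highest average signal, left 7741 genes and 2802 unnamed probe sets.

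limma 3.58.1 in R 4.3.3 was fitted to log2(value + 1) with a mean for each of 45 ligand and time groups and 1 for the 8 unstimulated arrays (50 residual degrees of freedom). The contrast was the mean of the 3 time-matched differences, so time acted as a block. Tested on simulated data with 200 changed genes, this contrast recovered 100% of changes of 1.5 and of 2.5 log2 units with 0 false calls. The simulated data had no floor and no array apart from its replicate. Each change was the same at all 3 times and above the limit of 1. The result therefore checks the fitting steps only, and cannot show how floored or time-varying differences are recovered. Folds are ratios of geometric means of intensity.

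Genes were named by a rule: the 15 largest called differences each way over 0.5 to 2 h with 1 sign at all times, the 5 largest each way at each time and for each change between times, up to 4 members of each of 14 gene lists, and a panel of 53 genes; called members of the lists, and genes near the limit of 1, are named besides. The members, lists and panel were chosen with earlier results of these data known. Same-numbered Cpg and Grd arrays did not deviate together (correlations of 0.00603, 0.0312 and -0.095 at 0.5, 1 and 2 h), so replicate numbers were not used as pairs. Alternatives varied the pseudocount, filter, scaling, probe set choice, variance model, call rule, arrays in the fit, and left out each array or time.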

Additional observations from a re-analysis of the deposited data

Results flagged for a closer look

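Differences between Cpg and Grd that changed between times are listed because the test of that change (limma interaction, adjusted over all items) called them; values are log2 units of Cpg minus Grd. From 0.5 to 2 h the difference moved towards Cpg for Dusp14 (4.06), Cd70 (3.61), Edn1 (3.28), Il23a (3.21) and Il1r2 (2.99), and towards Grd for Vhl (-1.95), Tlr8 (-1.80), Cxcl1 (-1.80), Egr2 (-1.65) and Tnf (-1.57). From 1 to 2 h it moved towards Cpg for Edn1 (2.41), Ifnb1 (2.21), Bcl2l1 (1.86), Clec10a (1.72) and Il1r2 (1.69), and towards Grd for Dusp2 (-2.08), Tnfsf9 (-2.06), Sox4 (-1.77), Nr4a1 (-1.66) and Map3k14 (-1.64).

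Against 4 to 8 h, the difference at 0.5 to 2 h was more on the Cpg side for Ereg (3.54), Egr1 (2.33), Dusp14 (2.00), Il12b (1.91) and Phlda1 (1.87). It was less on the Cpg side for Lhx2 (-1.81), Serpinc1 (-1.49), Iigp1 (-1.44), Isg20 (-1.41) and Tlr3 (-1.33); Lhx2 and Serpinc1 were at the floor on all 12 early arrays. Among the 8 unstimulated arrays a single array stood above the rest for Plat (24.3) and for Clcf1 (25.7), while the other 7 were at or near 20. With values held at the floor, a single reading above it is easily flagged. The rate of about 1 in 20 by chance, which assumes values without a floor, does not hold here.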

How the results depend on the processing

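Counts of called items moved by more than 1.5 times under few settings; the cause was not tested. With no minimum fold, 962 items were higher with Cpg and 1717 with Grd over 0.5 to 2 h, and 706 were called at 0.5 h, 2180 at 1 h, 1677 at 2 h, 1045 for 2 h against 0.5 h, 324 for 2 h against 1 h and 1537 for the early against the later window. Without the 0.5 h arrays 93 items were higher with Cpg and 5 with Grd, and without the 1 h arrays 28 were higher with Cpg. A pseudocount of 16 gave 27 calls at 0.5 h and 47 for the early against the later window; all probe sets gave 96 at 0.5 h and 329 for 2 h against 0.5 h; a test against a difference of 0.5 gave 19, 85 and 20 at 0.5 h, for 2 h against 0.5 h and for 2 h against 1 h. Leaving out each array gave 45 to 49 items higher with Cpg and 0 to 1 with Grd over 0.5 to 2 h, 30 to 57 at 0.5 h, 142 to 291 at 1 h (the highest without the second Cpg array), 110 to 128 at 2 h, 180 to 242 and 58 to 183 for the changes to 2 h from 0.5 and 1 h, and 76 to 88 against the later window. With the replicate number as a block, on the 12 arrays alone, the counts were 47 and 0 over 0.5 to 2 h, 43, 165 and 116 at 0.5, 1 and 2 h, and 185 and 57 for the changes to 2 h. With time as an additive block, on the 12 arrays alone, 38 items were higher with Cpg over 0.5 to 2 h and 0 with Grd. The floor limits all genes whose Grd arrays read 20.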
